A study of Mus musculus with 6 samples.

Results

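Autophagy genes with a known part in the clearing of mitochondria from maturing red cells were followed in mouse bone marrow after erythropoietin. The 10 genes were Bnip3l, Ulk1, Gabarapl1, Gabarapl2, Map1lc3a, Map1lc3b, Atg7, Sqstm1, Becn1 and Foxo3, and a probe belonged to one of them when its accession matched that gene in RefSeq. By this rule 9 of the 10 genes had a probe, 13 probes in all, and 8 genes with 12 probes were bright enough to test, among 14861 genes and 19600 probes tested on the array. Gabarapl2 had no matched probe and was not analysed here. Foxo3 had 1 probe, which none of the 6 arrays read well above background.

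Autophagy wraps part of the cytoplasm in a double membrane and delivers it to the lysosome. The ULK1 kinase starts the process, the Beclin 1 complex makes the lipid signal for the growing membrane, and the enzyme ATG7 activates small ubiquitin-like proteins of the ATG8 family (LC3 and GABARAP) so that they can be joined to that membrane. Receptors then tie cargo to the ATG8 proteins: p62 (Sqstm1) binds ubiquitinated protein, and NIX (Bnip3l) sits on mitochondria and is needed for their removal from reticulocytes. FOXO3 is a transcription factor of erythroid maturation that drives several autophagy genes, and signalling from the erythropoietin receptor through AKT is known to keep it out of the nucleus.

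All 6 samples were bone marrow cells from the femurs of male ISAM mice aged 10 weeks on a mixed strain background, with the genotype Epo-/-::3.3K-Epo3'-Tg458. These animals lack the endogenous Epo gene in every group and live on an Epo transgene that leaves adults short of the hormone, and no wild-type group was included. The treated arm was 3 samples taken 6 h after an intraperitoneal dose of 3000 U/kg recombinant human erythropoietin (rHuEPO), and the control arm was 2 samples taken 6 h after phosphate-buffered saline (PBS) and 1 untreated sample. One array was run per sample, and the labels do not say that the replicates were separate animals, so p-values measure the spread between these samples. The untreated array shared slide 1 with rHuEPO replicate 1, and the other 4 arrays lay on slide 2.

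Levels below are log2 signals after each array's 75th percentile was set to 0, and a difference is rHuEPO minus control on that log2 scale with its standard error (SE) from limma, 3 against 3 arrays. Where a gene had 2 probes they are called the brighter and the dimmer, and levels of different probes are not comparable. That percentile was a signal of 220.7 to 264, and with 6 arrays their number sets the precision. Marrow markers were present: 11 of 12 erythroblast, 12 of 14 granulocyte and 9 of 10 B cell markers had a matched probe, and all of these were bright enough to test. In the same fit Erfe, the erythroid hormone that lowers hepcidin, and Cish, a feedback inhibitor of STAT5 signalling, passed with limma adjusted p of 3.18e-05 and 0.0128. The receptor gene Epor had a difference of 0.31 ± 0.24.

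None of the autophagy genes passed the test between the arms. Gabarapl1 stood higher on all 3 rHuEPO arrays by both of its probes, the brighter probe of Ulk1 stood lower on all 3, and both probes of Bnip3l averaged lower with arms that overlapped, while Map1lc3a, Map1lc3b, Atg7, Sqstm1 and Becn1 had differences within 0.20 of 0. With limma and Benjamini-Hochberg adjustment over all features, 0 of 8 genes and 0 of 12 probes were called, against 0.0673% of all genes and 0.0561% of all probes. At an unadjusted p under 0.05 limma listed 2 of the 8 genes, where 4.96% of all genes were listed, and 3 of the 12 probes, where 4.53% of all probes were. Arms that did not overlap were seen for 2 of the 8 genes and 3 of the 12 probes, against 10.4% of all genes (5.01% with all treated arrays the higher and 5.38% with all the lower) and 9.84% of all probes. For a single probe the exact two-sided permutation test of 3 against 3 arrays cannot go below 0.1. With slide as a block limma called 0 of the 8 genes, against 0.074% of all genes, and 3 of the 8 had an unadjusted p under 0.05, against 11.3%.

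**Figure D1:**
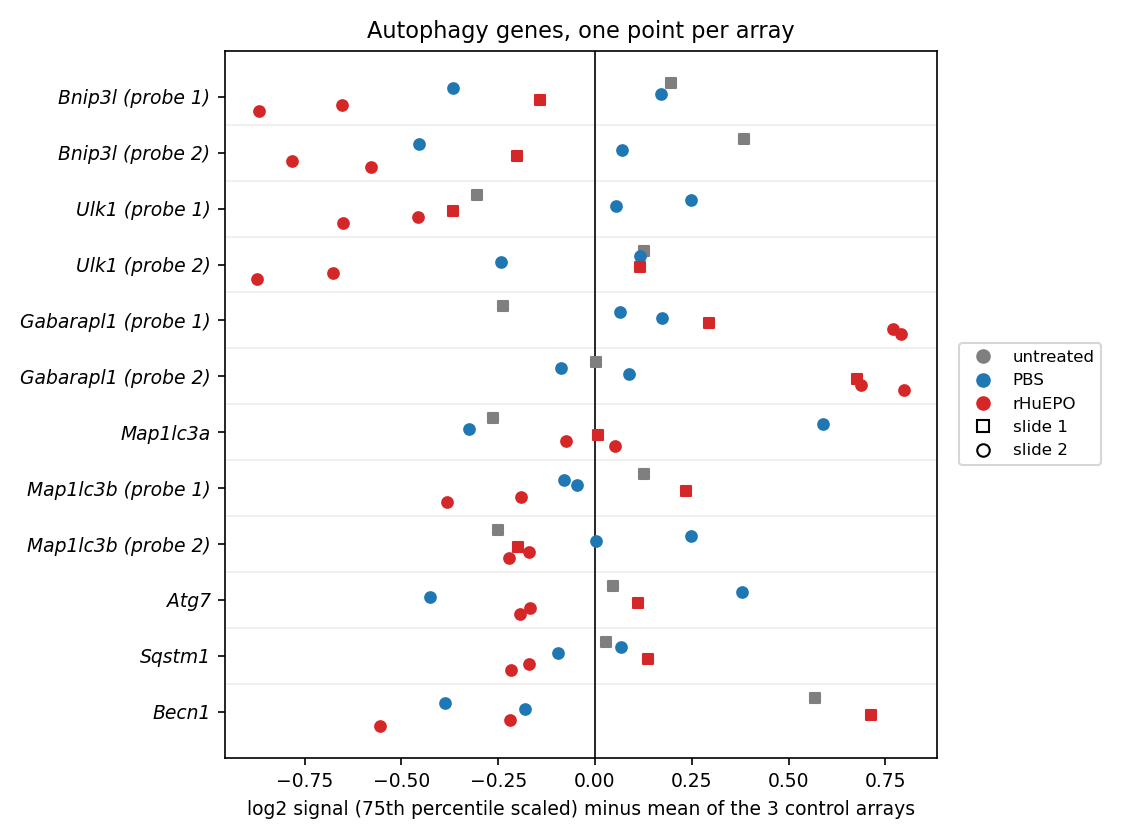
Each row is a probe of an autophagy gene, probe 1 being the brighter, and each point is 1 array, plotted as its log2 signal minus the mean of the 3 control arrays (squares slide 1, circles slide 2; grey untreated, blue PBS, red rHuEPO). The red points of both Gabarapl1 probes lie to the right of all grey and blue points, those of Ulk1 probe 1 lie to the left of them, and for Becn1 both squares lie apart from the circles.

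Gabarapl1 encodes an ATG8 protein of the GABARAP branch, which serves late steps of autophagosome growth and binds NIX on mitochondria. Its brighter probe read 4.67 on the untreated array and 4.97 and 5.08 on the PBS arrays, against 5.198, 5.67 and 5.69 on the rHuEPO arrays. The 3 treated arrays were the highest, and rHuEPO replicate 1 exceeded PBS replicate 2 by little. The difference was 0.62 ± 0.22, a 1.53-fold ratio with a 95% interval of 1.08 to 2.18 (limma adjusted p over all probes = 0.977). The dimmer probe read -0.17, -0.26 and -0.08 on the control arrays and 0.51, 0.52 and 0.63 on the rHuEPO arrays. Here both arms were narrow and lay well apart, with a difference of 0.72 ± 0.16, a 1.65-fold ratio with an interval of 1.27 to 2.14 (limma adjusted p over all probes = 0.628). The exact permutation p was 0.1 for each probe. Within slide 1 the differences were 0.53 and 0.67 for the brighter and dimmer probe, and within slide 2 they were 0.66 and 0.74. With slide as a block their limma adjusted p was 0.262 and 0.234. Under quantile, median and normexp processing the brighter probe ran from 0.56 to 1.13 and the dimmer from 0.59 to 0.80.

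Ulk1 encodes the kinase that starts autophagy and is needed for timely removal of mitochondria from reticulocytes. Its brighter probe read 4.999 on the untreated array, 5.55 and 5.36 on the PBS arrays and 4.94, 4.85 and 4.65 on the rHuEPO arrays. The arms did not overlap, but the untreated array and rHuEPO replicate 1, which shared slide 1, were nearly level. The difference was -0.49 ± 0.21, or 71.1% of control (limma adjusted p over all probes = 1.00; exact permutation p = 0.1). The dimmer probe read 2.28, 2.26 and 1.91 on the control arrays and 2.26, 1.47 and 1.28 on the rHuEPO arrays. There rHuEPO replicate 1 lay among the controls and the other 2 treated arrays below them, and the difference was -0.48 ± 0.29 (limma adjusted p over all probes = 1.00). Both probes thus showed their difference on slide 2, at -0.71 and -0.71, and hardly any on slide 1, at -0.06 and -0.01. With normexp background correction the 2 probes were at 0.01 and -0.01, so the sign of Ulk1 against 0 depended on the background correction. Normexp also moved the median of the 3715 brightest genes to 0.51, so 0 was not the middle for bright genes there.

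The promoters of these 2 genes are shown because they had the arms that did not overlap, in opposite directions. RefSeq promoters of assembly GRCm38.p6, from 250 bases before to 50 after the gene's start, were given for 7 of the 10 genes. They were searched on both strands for the forkhead core TAAACA, the STAT5 core TTCNNNGAA, the GATA core AGATAA and the E-box CACGTG, and matches are in capitals.
Gabarapl1, chr6:129532942-129533241, plus strand: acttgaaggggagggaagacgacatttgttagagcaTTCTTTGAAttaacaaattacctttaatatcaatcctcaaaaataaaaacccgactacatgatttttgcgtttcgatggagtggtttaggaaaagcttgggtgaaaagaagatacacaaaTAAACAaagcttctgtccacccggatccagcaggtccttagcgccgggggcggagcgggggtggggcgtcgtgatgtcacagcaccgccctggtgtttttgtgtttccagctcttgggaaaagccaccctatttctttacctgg
Ulk1, chr5:110810032-110810331, minus strand: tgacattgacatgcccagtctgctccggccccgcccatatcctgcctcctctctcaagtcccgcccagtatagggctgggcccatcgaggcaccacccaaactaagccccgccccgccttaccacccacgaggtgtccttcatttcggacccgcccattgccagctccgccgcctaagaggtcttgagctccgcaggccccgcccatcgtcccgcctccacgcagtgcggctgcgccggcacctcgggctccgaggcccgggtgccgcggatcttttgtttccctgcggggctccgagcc
Gabarapl1 held 1 forkhead core, 94 to 89 bases before the start, and 1 STAT5 core, 214 to 206 bases before it, and these 2 matches do not overlap. The Ulk1 window held none of the 4 motifs. Of all 32851 promoters of this length 13.4% held the forkhead core, 8.3% the STAT5 core, 11.2% the GATA core and 7.15% the E-box. The E-box also occurred once in the Atg7 promoter, 132 to 127 bases before the start, and the promoters of Gabarapl2, Map1lc3b, Sqstm1 and Foxo3 held none of the 4. A match describes letters and is not a binding site.

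Bnip3l encodes NIX, the mitochondrial outer membrane receptor that recruits ATG8 proteins. The brighter probe read 3.37, 2.81 and 3.35 on the untreated and the 2 PBS arrays and 3.04, 2.52 and 2.31 on the rHuEPO arrays. The arms overlapped because PBS replicate 1 was lower than rHuEPO replicate 1. The difference was -0.55 ± 0.26, or 68.1% of control with a 95% interval on the log2 scale from -1.17 to 0.06 (limma adjusted p over all probes = 1.00; exact permutation p = 0.2). The dimmer probe read 3.47, 2.63 and 3.15 on the control arrays and 2.88, 2.30 and 2.50 on the treated arrays. It overlapped in the same way and gave -0.52 ± 0.27, or 69.7% of control (limma adjusted p over all probes = 1.00; exact permutation p = 0.2). Within slides 1 and 2 the differences were -0.34 and -0.66 for the brighter probe and -0.59 and -0.49 for the dimmer, so both slides gave the same sign. Normexp left that sign but brought the differences nearer to 0, at -0.18 and -0.06, while it moved the median of the 3715 brightest genes to 0.51. The 3 genes whose values over the 6 arrays, centred on each gene's mean, lay nearest to the brighter Bnip3l probe were Ap1ar, Kat6b and Cdr2, with root mean square differences of 0.10, 0.11 and 0.11 log2 units where Bnip3l itself varied by 0.40.

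A log2 ratio of 2 genes within an array is unchanged by scaling that subtracts 1 value from the whole array, as percentile and median scaling do. Quantile and normexp processing can change it. The following ratios were chosen after the values were seen, so they carry no test. The log2 signal of Gabarapl1 minus that of Ulk1, both by their brighter probe, was -0.33, -0.58 and -0.28 on the control arrays and 0.26, 0.83 and 1.04 on the rHuEPO arrays. Every treated array lay above every control array, by 1.11 on average, with 0.60 within slide 1 and 1.37 within slide 2. Gabarapl1 minus Bnip3l was 1.29, 2.16 and 1.73 on the control arrays and 2.16, 3.15 and 3.38 on the treated ones. These arms were separated too, but rHuEPO replicate 1 and PBS replicate 1 were nearly level. Such a ratio shows an unequal difference of 2 probes and not which of them differed between the arms.

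**Figure D2:**
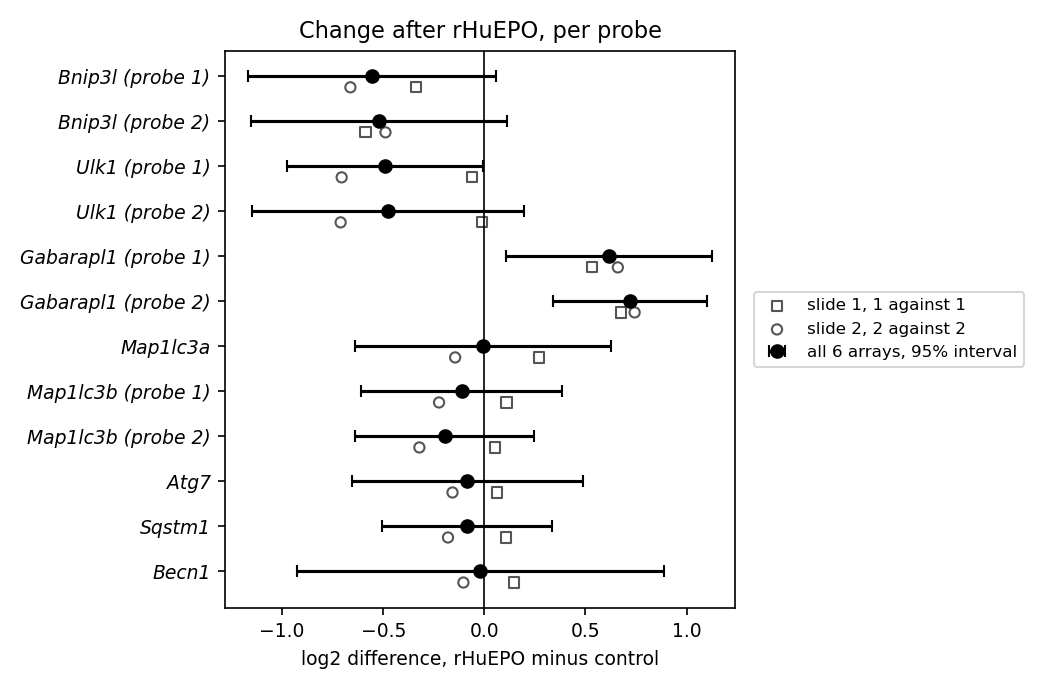
Filled points are the log2 difference, rHuEPO minus control, of each probe over all 6 arrays, with the 95% interval from limma; open squares and circles are the differences within slide 1 (1 against 1 array) and slide 2 (2 against 2). The intervals of both Gabarapl1 probes and of Ulk1 probe 1 leave out 0 before adjustment for the number of probes, and for Ulk1 the squares sit near 0 while the circles sit near -0.71.

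The other measured ATG8 genes had arms that overlapped, and no test compared them with Gabarapl1. All 4 tested genes of the family lay above 0 with normexp and with replicate number as a block, and 2 of 4 in the fit without either. With normexp the 3715 brightest genes had a median of 0.51, so a bright gene above 0 was usual there. In that block rHuEPO replicate 3 was alone with its number and added nothing to the difference. Map1lc3b, the LC3 isoform most used as an autophagosome marker, read 5.57, 5.36 and 5.39 on the control arrays and 5.68, 5.25 and 5.06 on the rHuEPO arrays by its brighter probe. Treated arrays lay on both sides of the controls, with a difference of -0.11 ± 0.21 and an interval of -0.61 to 0.38. The dimmer probe read 4.77, 5.27 and 5.03 on the control arrays and 4.83, 4.85 and 4.80 on the treated arrays, with a difference of -0.20 ± 0.19. Map1lc3a, the other LC3 gene, read 0.64, 1.496 and 0.58 on the control arrays and 0.91, 0.83 and 0.96 on the treated arrays. PBS replicate 1 was the highest of all 6, the treated arrays lay inside the range of the controls, and the difference was -0.01 ± 0.27. Gabarap, the founding gene of the GABARAP branch and not one of the 10, had a difference of 0.03 ± 0.22. Gabarapl1 minus Gabarap was separated between the arms, at 0.56, 0.18 and 0.66 on the control arrays and 0.80, 1.013 and 1.34 on the treated arrays, whereas Gabarapl1 minus Map1lc3b and minus Map1lc3a overlapped.

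Atg7, the E1-like activating enzyme for ATG8 proteins, read 0.76, 1.09 and 0.29 on the control arrays and 0.82, 0.55 and 0.52 on the rHuEPO arrays. The 2 PBS arrays were its highest and its lowest value, and the difference of -0.08 ± 0.24 had an interval of -0.66 to 0.49. Sqstm1, the p62 receptor, read 6.12, 6.16 and 6.00 on the control arrays and 6.23, 5.93 and 5.88 on the treated arrays, with rHuEPO replicate 1 the highest and the other 2 treated arrays the lowest. Its difference of -0.08 ± 0.18 had an interval of -0.50 to 0.34. With normexp Sqstm1, Map1lc3b and Becn1 took the other sign against 0, at 0.40, 0.43 and 0.33 by the brighter probe. Map1lc3a at 0.16 and Atg7 at 0.08 did so too. The median of the 3715 brightest genes was itself 0.51 with normexp, so 0 was not the middle for bright genes there. With median scaling Map1lc3a and Becn1 took the other sign, at 0.07 and 0.05.

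Becn1, which encodes Beclin 1, split by slide and not by arm. It read 2.68 on the untreated array and 2.83 on rHuEPO replicate 1, both on slide 1, against 1.73 and 1.94 on the PBS arrays and 1.90 and 1.56 on rHuEPO replicates 2 and 3, all on slide 2. Slide 1 was higher than slide 2 by 0.85 in the control arm and by 1.10 in the treated arm. The difference between the arms was -0.02 ± 0.39, and with slide as a block its SE was 0.16. In the control arm slide 1 held only the untreated sample, so slide and injection cannot be told apart there.

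Foxo3 gave no level. Its probe read -6.04, -5.96 and -6.03 on the control arrays and -5.66, -5.78 and -5.78 on the rHuEPO arrays, all not well above background, so no fold is given. The treated readings were a little higher, and the negative control spots were too, with a median signal of 3.74 to 4.03 on the control arrays and 4.73 to 5.51 on the rHuEPO arrays. No level of Foxo3 transcript in this marrow can be given from these arrays.

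Against PBS alone, in a fit of all 6 arrays with 3 groups, 0 of 8 genes were called by limma (0.0202% of all genes) and 1 had an unadjusted p under 0.05, against 3.98% of all genes. This comparison shares its PBS and rHuEPO arrays with the one above. Gabarapl1 was at 0.50 ± 0.24 and 0.72 ± 0.20 for its brighter and dimmer probe, Ulk1 at -0.64 ± 0.21 and -0.41 ± 0.34, and Bnip3l at -0.46 ± 0.30 and -0.33 ± 0.27. The untreated array against PBS, 1 array against 2, gave 0 calls by limma among the 8 genes and 0 among all 14861 (0%), with 0 of the 8 and 5.42% of all genes at an unadjusted p under 0.05. Its values were -0.36 ± 0.32 for the brighter Gabarapl1 probe, -0.46 ± 0.28 for the brighter Ulk1 probe, 0.30 ± 0.40 for the brighter Bnip3l probe and 0.85 ± 0.51 for Becn1. The untreated array was thus the one control nearest to the treated arrays for the brighter Ulk1 probe and the farthest from them for the brighter Gabarapl1 probe.

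The rest of the autophagy machinery was read through lists of pathway genes. Of 109 listed genes beyond the 10, 104 had a probe and 97 were tested. Limma called 0 of them, against 0.0673% of all genes, and 4 had an unadjusted p under 0.05, a share near the 4.96% of all genes. Of the 97, 67 lay below 0 with a median of -0.08, where the median of all genes was -0.01 and 52.7% of them lay below 0. With median scaling 50 of the 97 lay below 0, where 39.9% of all genes did, and with normexp 28, where 44.2% did, so the sign of such small shifts depended on the scale. Without PBS replicate 1 the count was 50 and the median -0.03, and without the untreated array they were 68 and -0.14. Against the median of all genes under the same processing, which normexp moved to 0.09, 66, 66, 66 and 37 of the 97 lay below with the 75th percentile, quantile, median and normexp processing. All 8 tested genes of the class III PI3-kinase complex, with Becn1 among them, lay below 0 at a median of -0.19, which became 7 of 8 with median scaling and 3 of 8 with normexp. Without the untreated array 5 of 8 lay below 0 at a median of -0.12, and without rHuEPO replicate 1 all 8 did at -0.30. Its smallest p values outside the 10 belonged to Atg14 (-0.28 ± 0.17), Rubcn (-0.33 ± 0.26) and Uvrag (-0.19 ± 0.17). The ULK1 complex had 4 of 5 genes below 0. Beside Ulk1 it held its scaffold Rb1cc1 (-0.54 ± 0.32), Atg13 (-0.22 ± 0.20) and Ulk2 (-0.07 ± 0.38), and 5, 3 and 3 of 5 lay below 0 under quantile, median and normexp processing. The median of -0.22 became -0.07 without PBS replicate 1.

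Downstream, the genes of membrane growth had 5 of 6 tested below 0, with Wdr45 at -0.42 ± 0.19, Wipi2 at -0.38 ± 0.23 and Atg2b at 0.37 ± 0.23, and 4 and 3 of 6 under median scaling and normexp. The median of -0.17 became -0.03 without PBS replicate 1 and -0.33 without PBS replicate 2 or rHuEPO replicate 1. Of the conjugation machinery around Atg7, 6 of 11 genes lay below 0, with 4 under median scaling, 2 under normexp, 2 without PBS replicate 1 and 8 without rHuEPO replicate 3. The protease Atg4a, which prepares GABARAP proteins, was at -0.41 ± 0.19, Atg4d at 0.27 ± 0.18 and Atg16l2 at -0.28 ± 0.30. With Sqstm1 counted, 6 cargo receptors were tested, at a median of -0.05 with 5 of 6 below 0. Among them were Tax1bp1 (-0.15 ± 0.27), Optn (0.12 ± 0.24) and Wdfy3 (-0.06 ± 0.25). The median took the other sign with normexp (0.37, 0 of 6 below 0), with median scaling (0.03, 2 of 6), and without the untreated array (0.03, 2 of 6) or rHuEPO replicate 3 (0.04, 2 of 6). Among 8 tested mitophagy genes Bnip3l had the lowest value, followed by its paralog Bnip3 at -0.29 ± 0.27, while Phb2 was at 0.41 ± 0.21, Bcl2l13 at 0.22 ± 0.18 and Pink1 at -0.25 ± 0.21.

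**Figure D3:**
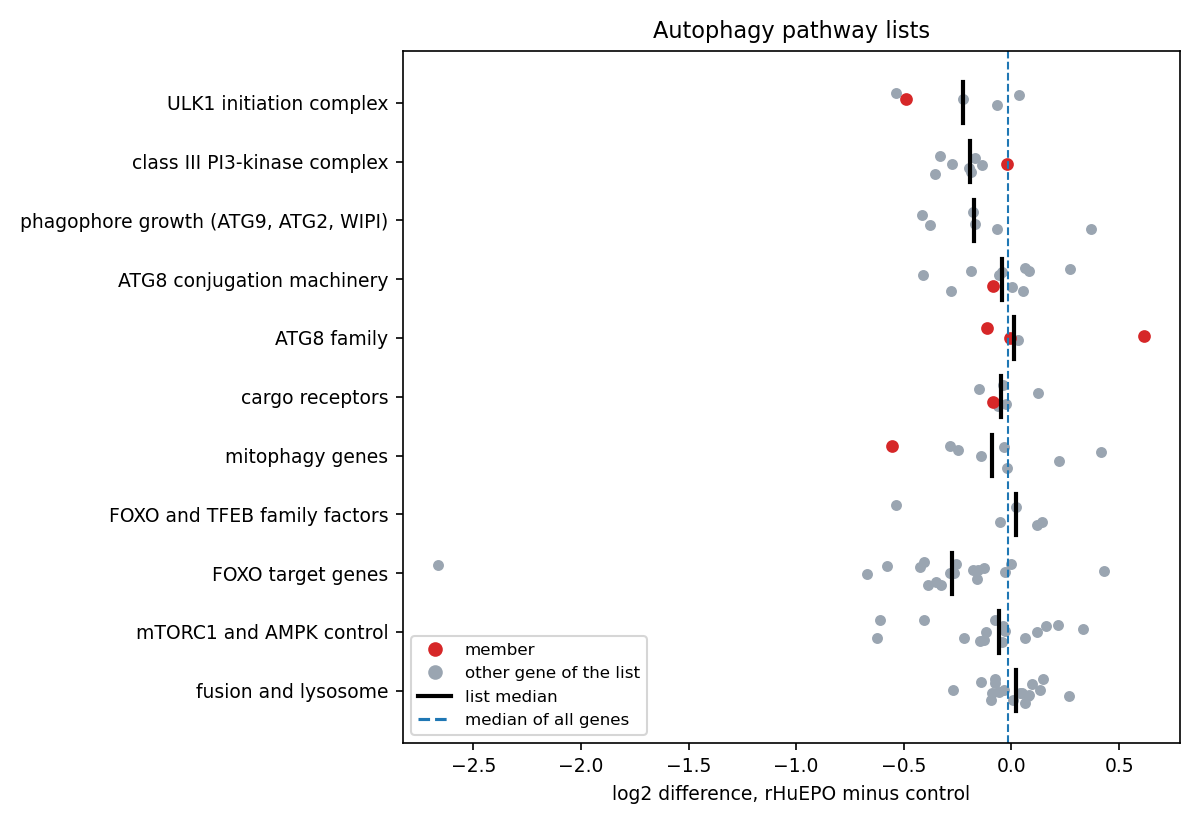
Each point is a tested gene's log2 difference, rHuEPO minus control; red points are the 8 autophagy genes followed here, grey points the other genes of each list, black bars the list medians and the dashed line the median of all 14861 genes (-0.01). Gabarapl1 is the highest red point at 0.62, Bnip3l the lowest at -0.55, and the FOXO target list has its median at -0.28.

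Although Foxo3 itself was not measurable, known FOXO target genes could be read. Of the FOXO and TFEB family genes 5 of 8 were tested and lay between -0.54 and 0.14, among them Mitf (-0.54 ± 0.47, with 1 of 3 rHuEPO arrays well above background), Tfe3 (0.14 ± 0.21) and Tfec (0.12 ± 0.37). The list of 20 FOXO targets, which leaves out the 10 genes, had 18 tested members, of which 17 lay below 0 at a median of -0.28, where 52.7% of all genes lay below 0. Limma called 0 of the 18, against 0.0673% of all genes, and 4 had an unadjusted p under 0.05, against 4.96%. For 5 of the 18 every rHuEPO array was below every control array, against 5.38% of all genes, and for none was every rHuEPO array above. Trp53inp1, a stress protein that binds ATG8 proteins, read 4.12, 4.62 and 4.46 on the control arrays and 3.74, 4.01 and 3.44 on the treated arrays, with a difference of -0.67 ± 0.22. Bcl2l11, the death gene Bim, read 2.11, 2.06 and 2.03 against 1.72, 1.66 and 1.55, a difference of -0.42 ± 0.16. Limma adjusted p was 0.855 and 0.907 for these 2 genes, and 0.338 and 0.318 with slide as a block. Depp1 had the smallest p of the list (limma adjusted p = 0.471), but rHuEPO replicate 1 was not well above background, so the size of its fitted difference is not given. Within slide 2, where all 4 arrays measured it, its difference was -1.69. Sod2, the mitochondrial superoxide dismutase, was the 1 of these 18 above 0, at 0.43 ± 0.24. The list's count does not cover the autophagy genes left out of it, several of which FOXO3 is known to drive. Of the 8 tested, 7 lay below 0, and Gabarapl1 lay above it at 0.62.

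The count of FOXO targets below 0 was 17 with quantile scaling, 15 with median scaling and 6 of 18 with normexp, where the list's median was 0.14 against 0.09 for all genes. Against the median of all genes it was 16, 17, 16 and 9 of 18 with the 75th percentile, quantile, median and normexp processing. The count below 0 was 13 to 17 when any 1 array was left out, with a median from -0.35 to -0.22. Within slides 1 and 2 the median was -0.23 and -0.27.

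**Figure D4:**
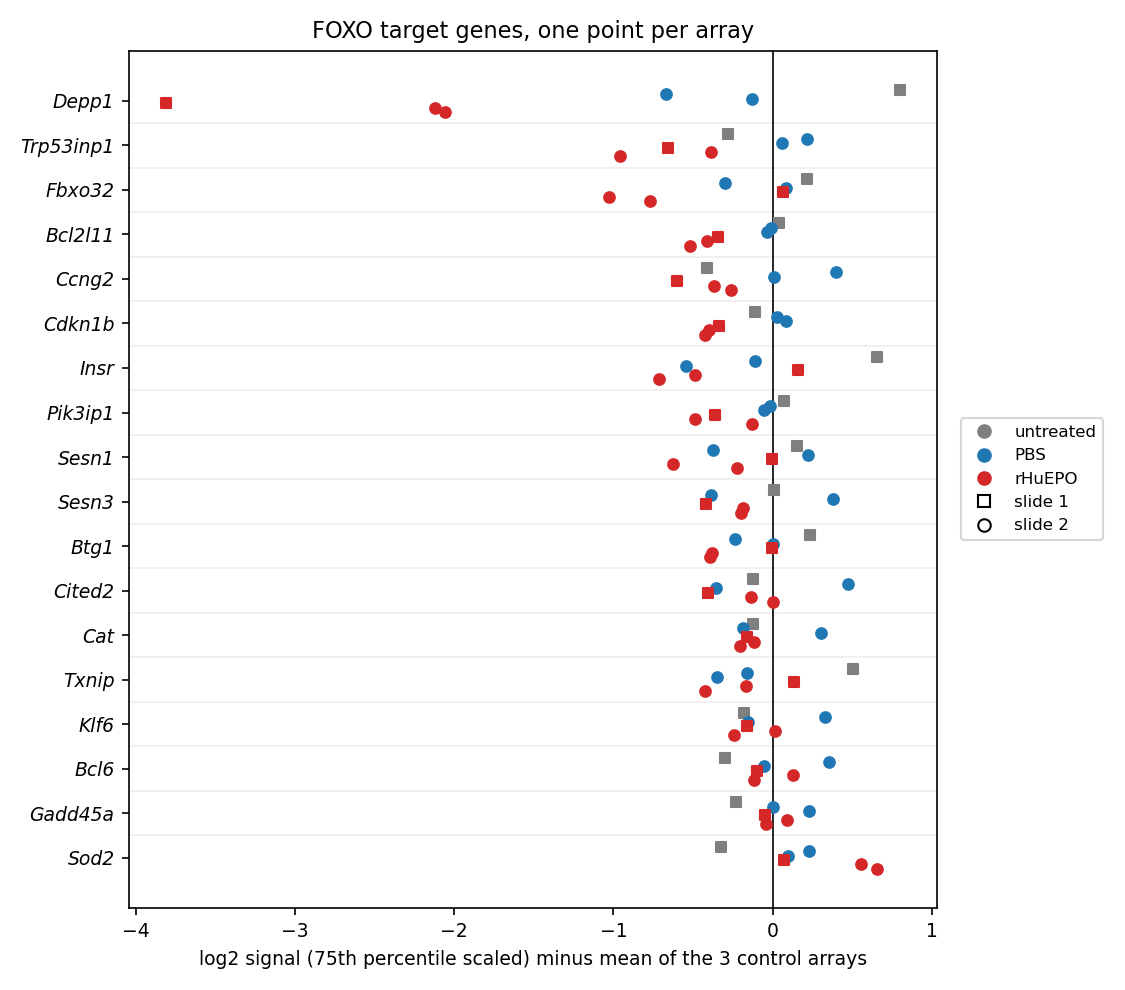
Each row is a tested FOXO target gene, ordered by its difference, and each point is 1 array as log2 signal minus the mean of the 3 control arrays (squares slide 1, circles slide 2; grey untreated, blue PBS, red rHuEPO). Red points lie left of all controls for Depp1, Trp53inp1, Bcl2l11, Cdkn1b and Pik3ip1, and Sod2 is the 1 gene with its mean right of 0; the red square of Depp1 was not well above background.

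Markers of the cell types in marrow were read on the same arrays. Of 11 tested erythroblast markers 9 lay above 0 at a median of 0.36, where 52.7% of all genes lay below 0. The highest were Tfrc at 0.97 ± 0.19 and Rhag at 0.86 ± 0.22, and the 2 below 0 were Alas2 (-0.07 ± 0.28) and Hba-a1 (-0.02 ± 0.17). Limma called 0 of the 11, against 0.0673% of all genes. The median of these markers was 0.17 without PBS replicate 1 and 0.15 with array weights. Their summed signal in multiples of the array's 75th percentile ran from 2090 to 2386 on the control arrays and from 2087 to 2457 on the rHuEPO arrays. The globin genes Hba-a1 and Hbb-bt, the brightest of these markers, weigh most in that sum. The mean log2 level of the markers, which weighs each alike, was 4.69, 4.25 and 4.861 on the control arrays. It was 5.04, 4.867 and 5.08 on the rHuEPO arrays, so here the arms did not overlap, though narrowly. The summed signal of 13 tested macrophage markers ran from 96 to 98.2 and from 99.3 to 117, with 10 of 13 above 0 (7 of 13 without PBS replicate 1). Their mean log2 level overlapped, at 1.76, 1.18 and 1.63 on the control arrays and 1.72, 1.82 and 1.665 on the rHuEPO arrays. The summed signal of 12 granulocyte markers ran from 2185 to 3011 and from 2133 to 2876. B cell markers, 9 tested, ran from 50.3 on PBS replicate 1 to 286 on PBS replicate 2 and from 103 to 130 on the rHuEPO arrays. For 9 T and NK cell markers the ranges were 33.8 to 45.8 and 35.4 to 42.3, and for 8 megakaryocyte markers 154 to 203 and 64.4 to 292, with rHuEPO replicate 1 the lowest. In whole marrow more cells of a type and more RNA per cell cannot be told apart, and the part of these shifts in the values of Gabarapl1, Ulk1 and Bnip3l was not tested.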

How the data were processed

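Cy3-labelled total RNA was hybridised to 1-colour Agilent arrays. Per the file headers, the deposited intensity values are background-subtracted processed signals from Agilent Feature Extraction 10.7.3.1. The deposited value table holds log2 values with no stated scaling. Compared with scanner values, they followed 75th-percentile-scaled log2 signals after subtraction of each probe's median, with slopes of at least 0.9988. Its column medians ran from -0.10 to 0.12.

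The log2 processed signal was used after subtraction of the 75th percentile of gene spots on its array, without 1639 control spots and outlier spots. Of 41174 probes, 17 lacked a usable signal on at least 1 array and were dropped. Probes well above background on at least 3 of 6 arrays were tested, and a gene was its brightest tested probe. Names came from RefSeq accessions of GRCm38.p6, which matched 26690 probes. The other 14484 probes kept their accession in place of a gene name, and those bright enough to test count among the 14861 genes. Limma 3.58.1 in R 4.3.3 (lmFit, eBayes, two-sided, threshold 0.05, Benjamini-Hochberg over all features) was fitted without covariates and tested on simulated data. There it recovered 34%, 66%, 98% and 90% of changes of 2, 4, 8 and 16-fold, with 6 false calls. A count of 0 called therefore does not show that the levels were equal. Member probes come from the fit over all probes and lists from that over genes.

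The genes and lists were chosen with earlier results of these data known. Named beyond the 10 genes were up to 3 per list with the smallest p, the 3 nearest to Bnip3l, and Erfe, Cish and Epor. Markers, Bnip3, Sod2, Gabarapl1 ratios and figure labels were named after values were seen. Replicate numbers were not treated as pairs in the main fit. Deviations of same-numbered PBS and rHuEPO arrays correlated at -0.07 and -0.16, which cannot settle whether the numbers pair samples. Alternatives were other scalings, normexp (offset 50, on median signals), filters, the value table, PBS as the only control, prior, probe mean, slide or replicate block, array weights and each array left out. Some genes of the lists are not reported here.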

Additional observations from a re-analysis of the deposited data

How the results depend on the processing

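The count of 0 autophagy genes called stood under each alternative run, slide 2 alone included, which was added after seeing the data, as were the list counts under other settings. Among all genes the 10 calls became 1 with normexp or without a filter, 5 with a filter on all 6 arrays, 3 with PBS as the only control or slide 2 alone, 27 with array weights and 1 to 6 with 1 array left out. With replicate number as a block 1 gene was called, and no autophagy gene, and the median change of the 8 genes turned to 0.04 with 2 of 8 below 0. In that block rHuEPO replicate 3 was the only array with its number, so it added nothing to the difference. In the main fit the median change of the 8 genes was -0.08, and it was -0.24 to -0.02 with 1 array left out. It moved to 0.25 with normexp. Normexp shifted the median of all genes by brightness, to -0.44 for the 3716 dimmest and to 0.51 for the 3715 brightest genes. Against the latter the brighter probe of Gabarapl1 (1.13) still lay above and that of Ulk1 (0.01) below. Over 19 settings the lowest limma adjusted p was 0.176 for Gabarapl1, 0.183 for Ulk1 and 0.219 for Bnip3l.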

Other observations

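The control layer above autophagy and the lysosome below it were also read. Of 18 genes of mTORC1 and AMPK control 16 were tested, and 11 lay below 0 at a median of -0.06, where 52.7% of all genes lay below 0. Limma called 0 of the 16, against 0.0673% of all genes, and 0 had an unadjusted p under 0.05, against 4.96%. With median scaling 8 of the 16 lay below 0 and with normexp 6, and 8 to 11 with 1 array left out, with a median from -0.08 to -0.01. Rragd, a Rag GTPase that ties mTORC1 to amino acids at the lysosome, was at -0.63 ± 0.33, and Prkab1, a subunit of AMPK, at 0.33 ± 0.21. Prkab1 was the 1 of 16 with every rHuEPO array above every control array, against 5.01% of all genes. Ddit4, the mTORC1 inhibitor REDD1, read 5.32, 5.27 and 5.33 on the control arrays and 3.51, 4.92 and 5.65 on rHuEPO replicates 1, 2 and 3. Its difference of -0.61 ± 0.49 thus came from slide 1, at -1.81, and was -0.01 within slide 2.

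Of 20 genes of fusion and the lysosome 18 were tested, and 8 lay below 0 at a median of 0.02, where 52.7% of all genes lay below 0. Limma called 0 of the 18, against 0.0673% of all genes, and 0 had an unadjusted p under 0.05, against 4.96%. With quantile, median and normexp processing 9, 6 and 0 of the 18 lay below 0. The count was 4 without PBS replicate 1 or without rHuEPO replicate 1 and 13 without the untreated array, with medians of 0.16, 0.08 and -0.09. Mcoln1, a lysosomal calcium channel, was at -0.27 ± 0.16. It was the 1 of 18 with every rHuEPO array below every control array, against 5.38% of all genes. The cathepsin Ctsl was at 0.27 ± 0.23 and Atp6v1h, a subunit of the proton pump, at 0.13 ± 0.21.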
